A study of Homo sapiens with 6 samples.

Results

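The interferon regulatory factor (IRF) genes described here were *IRF1*, *IRF2*, *IRF3*, *IRF4*, *IRF5*, *IRF7*, *IRF8* and *IRF9*, 8 of the 30017 genes in the count table. They were chosen by name, as the listed symbols of the family, and *IRF8* was on the list because its dependence on CTCF was already known from these data. All 8 had enough reads to enter the test, which covered 14758 genes.

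RNA-seq had been performed in BLaER1-CTCF-mAID cells, a human B cell leukemia line. Exogenous expression of the transcription factor CEBPA, with estradiol, IL-3 and CSF-1 added, converts this line into macrophage-like cells. The cells used are a subclone of that line and carry a degron tag on CTCF through which the auxin IAA removes the protein. The design asks how gene expression changes during this transdifferentiation with and without CTCF. There were 2 libraries in each of 3 groups, all of the same degron genotype: untreated cells at 0 h (0 h), cells 96 h after induction without IAA (96 h control) and cells 96 h after induction with IAA (96 h CTCF-depleted). No line without the degron received IAA, so effects of IAA and of CTCF depletion cannot be told apart.

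IRF proteins bind DNA through a conserved domain at their amino terminus and recognize interferon-stimulated response elements and related sites. IRF3, IRF5 and IRF7 are activated downstream of nucleic acid sensors and Toll-like receptors, IRF9 is part of the ISGF3 complex that acts downstream of the interferon receptors, and IRF1 and IRF2 act as an activator and a competing repressor at many of the same sites. IRF4 and IRF8 bind mostly together with partners such as PU.1, with IRF4 known from B cell and plasma cell differentiation and IRF8 from monocytes, dendritic cells and B cells.

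The libraries held 9273470 and 12718780 counts at 0 h, 11695516 and 11267539 in the 96 h control and 11001175 and 10911481 in the 96 h CTCF-depleted group. Levels are given as CPM, counts scaled to the library total with TMM factors, and a gene was called different at an adjusted p below 0.01 with an absolute log2 fold change above 0.6, from edgeR's quasi-likelihood test over all 14758 genes. With 2 libraries against 2, an exact permutation test of a single gene cannot go below a two-sided p of 0.3333. The p-values therefore depend on variances that edgeR pools over genes. The libraries were checked against cell type markers. Of 9 B cell markers, all 9 were lower in the 96 h control than at 0 h, and their summed level went from 2143 and 2149 CPM to 372 CPM in both control libraries, with *EBF1* holding the most counts. All 10 macrophage markers were higher, with a summed level of 41.7 and 39.5 CPM at 0 h, 5377 and 5132 CPM in the 96 h control and 5013 and 4976 CPM without CTCF. *LYZ* held the most counts of them, and *CD163* and *FCGR1A* had no count at 0 h. The B cell markers still summed to 387 and 392 CPM in the CTCF-depleted libraries. That sum includes *CD22*, which went from 32.5 and 37.1 CPM in the control to 97.9 and 95.3 CPM. The median log2 fold change of the 9 markers against the control was -0.17. Of 10 markers of other blood cells, 8 were too low to test, among them *CD3D*, *HBB* and *HBA1* with no count in any library. *NKG7* and *PPBP* were the 2 tested, and both were higher at 96 h in the control. The RNA comes from whole cultures, so that fewer cells of a type and less RNA per cell cannot be told apart. *CTCF* itself had 181 and 174 CPM in the 96 h control and 191 and 189 CPM in the CTCF-depleted libraries, and the degron acts on the protein.

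Promoter sequences from RefSeq (GRCh38.p14) were at hand for 5 of the 8 genes, *IRF1*, *IRF4*, *IRF5*, *IRF8* and *IRF9*, and for none of *IRF2*, *IRF3* and *IRF7*. The 250 bases before the start are printed below for *IRF1* and *IRF8*, the members that were lower without CTCF, and for *IRF9*, a member called higher at 96 h both with and without it. Each is written 5′ to 3′ along the gene, with motif matches in capitals. The *IRF8* window is 1 of 2 in the table, both of alternative starts inside the annotated gene.
IRF1 (chr5:132490774-132491023, minus strand): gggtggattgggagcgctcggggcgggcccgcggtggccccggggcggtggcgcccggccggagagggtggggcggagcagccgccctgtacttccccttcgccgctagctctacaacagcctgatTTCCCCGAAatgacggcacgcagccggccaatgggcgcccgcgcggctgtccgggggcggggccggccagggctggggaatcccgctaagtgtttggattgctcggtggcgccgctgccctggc
IRF8 (chr16:85902580-85902829, plus strand): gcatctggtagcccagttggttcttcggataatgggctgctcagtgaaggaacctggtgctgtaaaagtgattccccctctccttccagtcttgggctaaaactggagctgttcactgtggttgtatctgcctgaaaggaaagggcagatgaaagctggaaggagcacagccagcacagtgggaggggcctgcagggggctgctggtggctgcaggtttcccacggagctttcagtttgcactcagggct
IRF9 (chr14:24161015-24161264, plus strand): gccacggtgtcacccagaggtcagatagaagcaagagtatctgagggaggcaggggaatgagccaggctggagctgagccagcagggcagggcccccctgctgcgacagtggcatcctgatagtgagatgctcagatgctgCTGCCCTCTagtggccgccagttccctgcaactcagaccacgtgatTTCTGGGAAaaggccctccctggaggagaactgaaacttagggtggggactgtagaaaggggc
The motifs searched on both strands were GAAANNGAA (an IRF site), GGAANNGAA (an ETS-IRF composite site), TTCNNNGAA (a GAS element), TTGCNNAA (a C/EBP site) and AGNNGGCAG (part of the CTCF core). In the *IRF1* window the capitals mark a GAS match that begins 124 bases before the start. The *IRF9* window held a GAS match that begins 63 bases and a CTCF-core match that begins 109 bases before the start. Of the *IRF5* windows, which are not printed, 1 held a C/EBP match that begins 195 bases before its start, 1 an ETS-IRF match at 32 bases and 1 a CTCF-core match at 105 bases, and *IRF4* had no match. No match of the 5 motifs was found in either *IRF8* window. Both lie inside the gene, so that the bases before its annotated start were not searched. Among all 35116 promoters of the table, 6.57% had a GAS match, 6.88% an IRF-site match, 6.58% an ETS-IRF match, 9.05% a C/EBP match and 9.08% a CTCF-core match in the 250 bases before the start. A match describes the letters of a window and was not tested for binding.

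*IRF8* (chromosome 16, 85899116 to 85922606, hg38) showed the widest range of the family. It had 147 and 144 counts at 0 h, 4036 and 3698 in the 96 h control and 1823 and 1814 with CTCF depleted, or 15.2 and 10.8 CPM, 356 and 342 CPM, and 169 and 167 CPM. The groups did not overlap, with both CTCF-depleted libraries lying between the 0 h and the control libraries. The mean was 349 ± 9.72 CPM (SD, n = 2) with CTCF and 168 ± 1.19 CPM (SD, n = 2) without it. The log2 fold change against 0 h was 4.78 (standard error, SE, 0.08) in the control and 3.73 (SE 0.08) without CTCF, and that of CTCF-depleted against control cells was -1.06 (SE 0.05). These values describe the pattern for which *IRF8* was listed and carry no test. The 0 h libraries differed by more than the other pairs, so that leaving out each library in turn gave 4.48 to 5.01 for the change in control cells and -1.05 to -0.995 for the change with CTCF depletion.

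**Figure D1:**
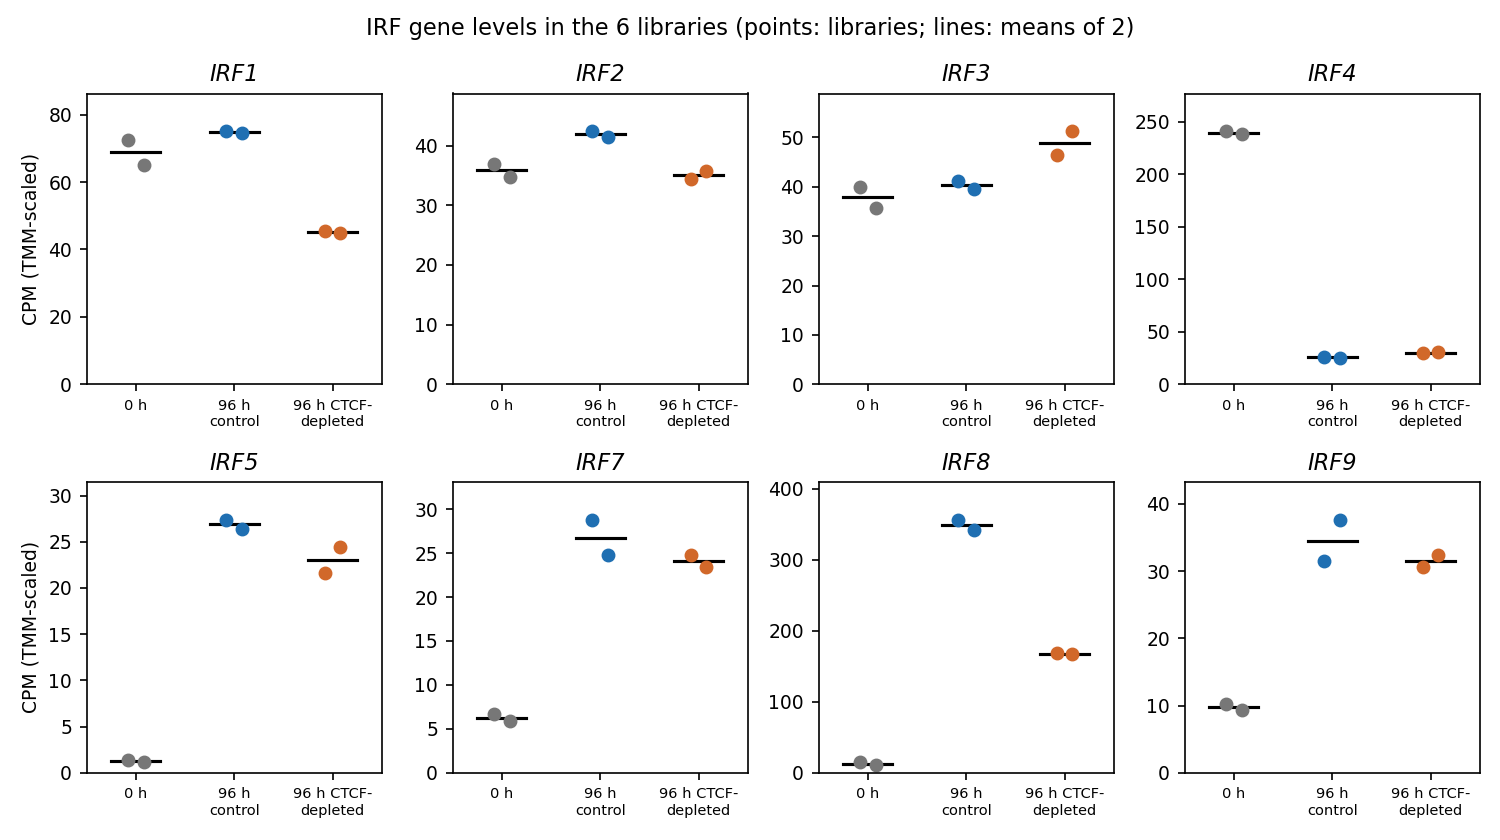
Levels of the 8 IRF genes in the 6 libraries, in TMM-scaled CPM on an axis that starts at 0 in each panel, with points for libraries and lines for means of 2 libraries. *IRF8* went from 15.2 and 10.8 CPM at 0 h to 356 and 342 CPM in the 96 h control and 169 and 167 CPM without CTCF.

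Among the paralogs activated by innate sensors, *IRF5* and *IRF7* were called higher in control cells at 96 h than at 0 h and *IRF3* was not called. *IRF5*, which acts downstream of Toll-like receptors and MyD88, had 13 and 15 counts at 0 h, 310 and 285 in the 96 h control and 234 and 265 without CTCF. The 0 h libraries were low, at 1.34 and 1.13 CPM, both control libraries were high, at 27.4 and 26.4 CPM, and the CTCF-depleted libraries lay just below them, at 21.7 and 24.4 CPM. The control cells had a log2 fold change of 4.45 against 0 h (SE 0.20, edgeR adjusted p = 1.86e-28). *IRF7*, known for amplifying type I interferon production, stood at 6.70 and 5.85 CPM at 0 h, 28.8 and 24.7 CPM in the control and 24.8 and 23.4 CPM without CTCF. Its control and CTCF-depleted libraries overlapped, and both groups lay above 0 h. *IRF7* rose by a log2 fold change of 2.10 in control cells (SE 0.14, edgeR adjusted p = 3.28e-20). *IRF3*, present in most cell types and controlled by phosphorylation, had 39.9 and 35.8 CPM at 0 h and 41.2 and 39.6 CPM in the control, with overlapping libraries. The CTCF-depleted libraries had the highest *IRF3* levels, at 46.5 and 51.2 CPM.

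*IRF9*, the DNA-binding subunit of ISGF3, had 10.2 and 9.38 CPM at 0 h, 31.4 and 37.6 CPM in the 96 h control and 30.6 and 32.3 CPM in the CTCF-depleted libraries. Both 96 h groups lay above 0 h and overlapped each other. The log2 fold change in control cells was 1.82 (SE 0.12, edgeR adjusted p = 9.65e-21). *IRF4* took the opposite course. It had 2335 and 3182 counts at 0 h (241 and 239 CPM), 294 and 273 in the control (25.9 and 25.3 CPM) and 322 and 329 without CTCF (29.8 and 30.3 CPM). All 4 libraries at 96 h lay far below the 0 h pair, and *IRF4* fell by 3.23 on the log2 scale in control cells (SE 0.07, edgeR adjusted p = 4.02e-43).

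*IRF1* and *IRF2*, which compete for shared sites, changed little between 0 h and the 96 h control. *IRF1* had 72.5 and 65.0 CPM at 0 h, 75.02 and 74.5 CPM in the control and 45.4 and 44.8 CPM without CTCF. The CTCF-depleted pair lay below every other library. *IRF2* had 36.9 and 34.7 CPM at 0 h, 42.4 and 41.5 CPM in the control and 34.4 and 35.7 CPM without CTCF. Its control libraries were the highest, and the 0 h and CTCF-depleted libraries overlapped. In control cells against 0 h the log2 fold change was 0.13 for *IRF1* (SE 0.07, edgeR adjusted p = 0.118), 0.23 for *IRF2* (SE 0.08, edgeR adjusted p = 0.00967) and 0.10 for *IRF3* (SE 0.08, edgeR adjusted p = 0.27), none of them past the fold change threshold. Over 12 alternative settings the value ranged from 0.00239 to 0.194 for *IRF1* and from 0.141 to 0.264 for *IRF2*.

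In sum over the 96 h control against 0 h, 4 of the 8 genes were called higher (*IRF5*, *IRF7*, *IRF8* and *IRF9*), where 25.4% of all tested genes were, and 1 was called lower (*IRF4*), where 22.9% of all tested genes were. The median log2 fold change was 1.03 over the 8 genes and 0.02 over all 14758 genes. Without *IRF8*, whose induction was also known, 3 of 7 were higher and 1 lower, with a median of 0.23.

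The effect of CTCF depletion was read from the 96 h CTCF-depleted against the 96 h control libraries. Of the 8 genes, *IRF1* and *IRF8* were called lower, where 7.03% of all tested genes were, and 0 were called higher, where 5.41% of all tested genes were. By edgeR at unadjusted p < 0.05 2 members were higher (*IRF3* and *IRF4*) and 3 lower (*IRF1*, *IRF2* and *IRF8*), and DESeq2 also called 0 higher and 2 lower. The shares of 5.41% and 7.03% do not apply to counts at unadjusted p < 0.05, here and for all lists below. Already at adjusted p below 0.05 with no fold change threshold, 2375 of the 14758 genes were higher and 3330 lower. The median over the 8 genes was -0.19, beside -0.03 over all tested genes. The fall of *IRF8* was known when it was listed, and without it 1 of 7 members was lower and the median was -0.15. *IRF1* was lower by a log2 fold change of -0.73 (SE 0.08, edgeR adjusted p = 1.5e-11), with the CTCF-depleted mean at 45.1 ± 0.424 CPM (SD, n = 2) and the control mean at 74.8 ± 0.332 CPM (SD, n = 2). *IRF2* had a log2 fold change of -0.26 (SE 0.08, edgeR adjusted p = 0.00963) and *IRF3* one of 0.27 (SE 0.08, edgeR adjusted p = 0.00604), both short of the fold change threshold. For *IRF4* the value was 0.23 (SE 0.09, edgeR adjusted p = 0.0326). The induced paralogs had smaller values, -0.22 for *IRF5* (SE 0.11, edgeR adjusted p = 0.121), -0.15 for *IRF7* (SE 0.11, edgeR adjusted p = 0.305) and -0.13 for *IRF9* (SE 0.10, edgeR adjusted p = 0.312). Over 12 alternative settings the value ranged from -0.281 (without CTCF-depleted replicate 2) to -0.0998 (without CTCF-depleted replicate 1) for *IRF5*. For *IRF7* it ranged from -0.225 (without control replicate 2) to -0.00426 (without control replicate 1). For *IRF9* the sign depended on a single library, since the value was 0.03 without control replicate 2.

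**Figure D2:**
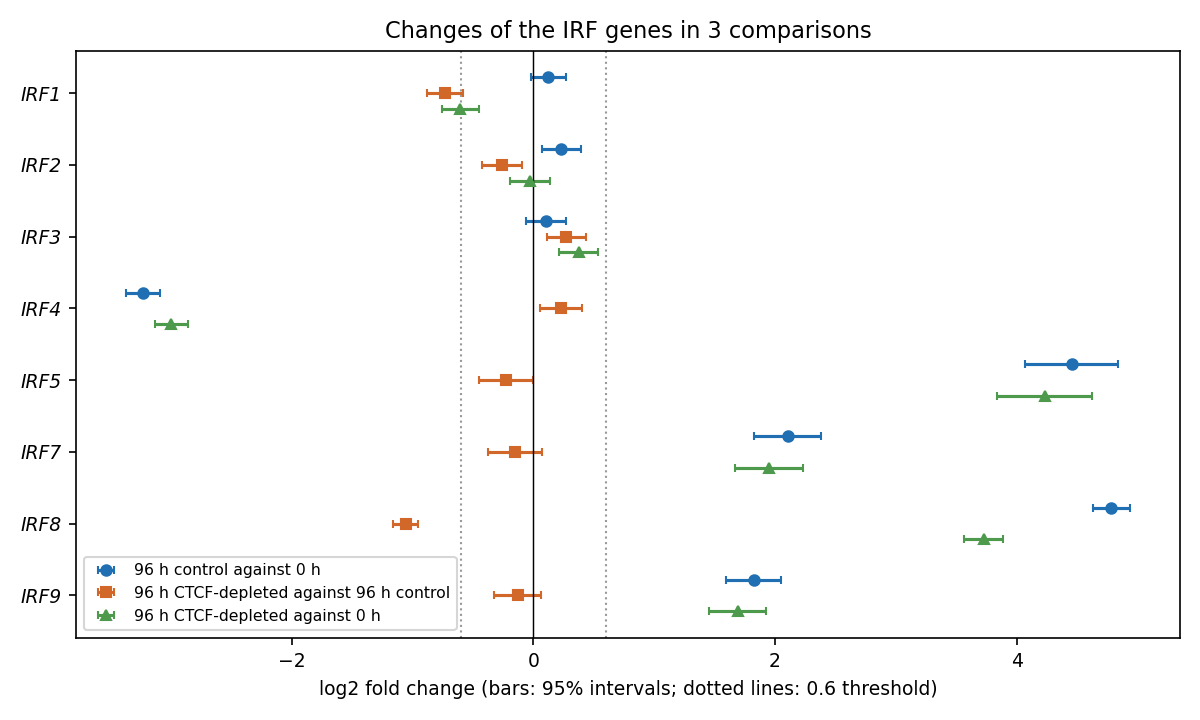
Log2 fold changes of the 8 IRF genes in the 3 comparisons, with bars for 95% intervals and dotted lines at the threshold of 0.6. *IRF8* and *IRF1* lie below the lower line in the comparison of CTCF-depleted with control cells, at -1.06 and -0.73.

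*IRF8* was then set against each of its 7 paralogs within the same comparison. The log2 ratio of *IRF8* to *IRF1* counts was -2.26 and -2.59 at 0 h, 2.25 and 2.20 in the control and 1.90 in both CTCF-depleted libraries. The ratio thus did not overlap between any pair of groups, and being taken within a library it does not depend on how libraries are scaled. The log2 fold change of *IRF8* with CTCF depletion was lower than that of *IRF1* by 0.33 (difference -0.33, 95% interval -0.52 to -0.14). Against *IRF2* the difference was -0.80 (95% interval -0.995 to -0.601), against *IRF5* -0.83 (95% interval -1.09 to -0.58) and against *IRF7* -0.91 (95% interval -1.15 to -0.66). Against *IRF9* it was -0.93 (95% interval -1.15 to -0.70), against *IRF4* -1.29 (95% interval -1.49 to -1.08) and against *IRF3* -1.33 (95% interval -1.53 to -1.13). Each interval thus lay below 0, with *IRF1* the nearest paralog. *IRF8* was chosen for its change, so that these intervals describe the size of the gap.

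For the induction itself, the paralog nearest to *IRF8* was *IRF5*. The difference of their log2 fold changes in control cells was 0.33 (95% interval -0.09 to 0.75), a description since the induction of *IRF8* was known when it was listed. Leaving out single libraries gave 0.21 to 0.45. Without CTCF the difference against 0 h was -0.50 (95% interval -0.94 to -0.07, and -0.62 to -0.39 on leaving out single libraries), given as a description because *IRF8* was chosen for its smaller rise without CTCF. The log2 ratio of *IRF8* to *IRF5* counts was 3.50 and 3.26 at 0 h, 3.70 in both control libraries and 2.96 and 2.78 without CTCF. Against *IRF7* and *IRF9* the induction of *IRF8* was larger by 2.68 and 2.96 on the log2 scale in control cells, and by 1.77 and 2.03 without CTCF. The widest swing was that against *IRF4*, the other PU.1 partner. The log2 ratio of *IRF8* to *IRF4* counts was -3.99 and -4.47 at 0 h, 3.78 and 3.76 in the control and 2.501 and 2.46 without CTCF.

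As a share of the control level, CTCF-depleted cells kept 48.1% of the *IRF8* level, with 46.9% to 49.3% over the pairs of libraries, and 46.1% of the gain over 0 h. The mean level was 26.9 times that at 0 h with CTCF and 12.9 times without it. The induced paralogs kept more of their level, 85.7% for *IRF5* (79.2% to 92.5% over pairs of libraries), 90.1% for *IRF7* (81.3% to 100.4%) and 91.3% for *IRF9* (81.5% to 102.9%). The ranges of these 3 paralogs overlapped one another, and the *IRF8* range lay below each of them. *IRF8* was listed for its smaller rise without CTCF, so that its kept share is a description. The pairs reuse the same libraries and are not independent.

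Against 0 h, the CTCF-depleted libraries had the same 4 members called higher, where 27.2% of all tested genes were, and *IRF4* and *IRF1* called lower, where 25.2% were. This comparison shares its libraries with the other 2. The log2 fold change was 4.23 for *IRF5*, 1.95 for *IRF7*, 1.69 for *IRF9* and -2.99 for *IRF4*. *IRF1* passed the fold change threshold narrowly, at -0.60 (SE 0.08, edgeR adjusted p = 7.19e-10). Its call was lost with RLE size factors, with a minimum of 10 counts in every library, without 0 h replicate 1 (-0.50) and without CTCF-depleted replicate 2 (-0.57). *IRF3* had a log2 fold change of 0.38 (SE 0.08, edgeR adjusted p = 5.75e-05) and *IRF2* of -0.03 (SE 0.08, edgeR adjusted p = 0.776).

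The IRF genes were compared with one another in level only per length, as CPM per kb of the exons of the MANE Select transcript. At 0 h *IRF4* stood first with 45.1 ± 0.293 CPM per kb (SD, n = 2), followed by *IRF3* with 23.7 ± 1.84, *IRF1* with 19.3 ± 1.49 and *IRF2* with 15.9 ± 0.69. The lower end was *IRF9* with 6.02 ± 0.364, *IRF8* with 4.87 ± 1.16, *IRF7* with 3.26 ± 0.314 and *IRF5* with 0.425 ± 0.0527 CPM per kb. No neighbours in this order overlapped in their libraries. In the 96 h control *IRF8* stood first with 131 ± 3.64 CPM per kb, then *IRF3* with 25.3 ± 0.70, *IRF9* with 21.2 ± 2.69 and *IRF1* with 21.0 ± 0.0934. *IRF9* and *IRF1* overlapped there, and *IRF4* had become the lowest of the family with 4.82 ± 0.0886. In CTCF-depleted cells *IRF8* was still first with 62.9 ± 0.448 CPM per kb, ahead of *IRF3* with 30.6 ± 2.10, *IRF9* with 19.4 ± 0.733 and *IRF2* with 15.5 ± 0.436. *IRF1* followed with 12.7 ± 0.119 and overlapped with *IRF7* at 12.5 ± 0.521 CPM per kb. The first place of *IRF4* at 0 h and of *IRF8* at 96 h held with coding length and with all annotated exons as the length, and the places below depended on it.

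The make-up of the family per kb changed with these levels. The summed level of the 8 genes was 123 and 114 CPM per kb at 0 h, 248 and 242 in the 96 h control and 165 and 169 in the CTCF-depleted libraries. The depleted libraries lay above 0 h by this length alone. By coding length the sums were 314 and 296 at 0 h, 472 and 460.5 in the control and 298 and 302 without CTCF, and by all annotated exons 68.6 and 65.1, 92.7 and 89.6, and 64.9 and 66.2. With MANE exons, *IRF4* made up 36.8% and 39.3% of it at 0 h and 1.97% and 1.96% in the control. Its share depended on the length used, with 53.7% and 56.3% at 0 h and 3.84% in both control libraries by coding length, and 58.9% and 61.4% and 4.69% and 4.73% by all annotated exons. *IRF8* made up 4.62% and 3.54% at 0 h, 53.9% and 53.0% in the control and 38.3% and 37.0% without CTCF. By coding length its mean share was 56.3% in the control and 42.1% without CTCF, and by all exons 48.8% and 32.7%. The share of *IRF3* was higher without CTCF (17.6% and 19.0%) than in the control (10.4% and 10.3%), and that of *IRF9* was 11.4% and 11.7% beside 7.80% and 9.54%. A share also rises when another member falls.

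**Figure D3:**
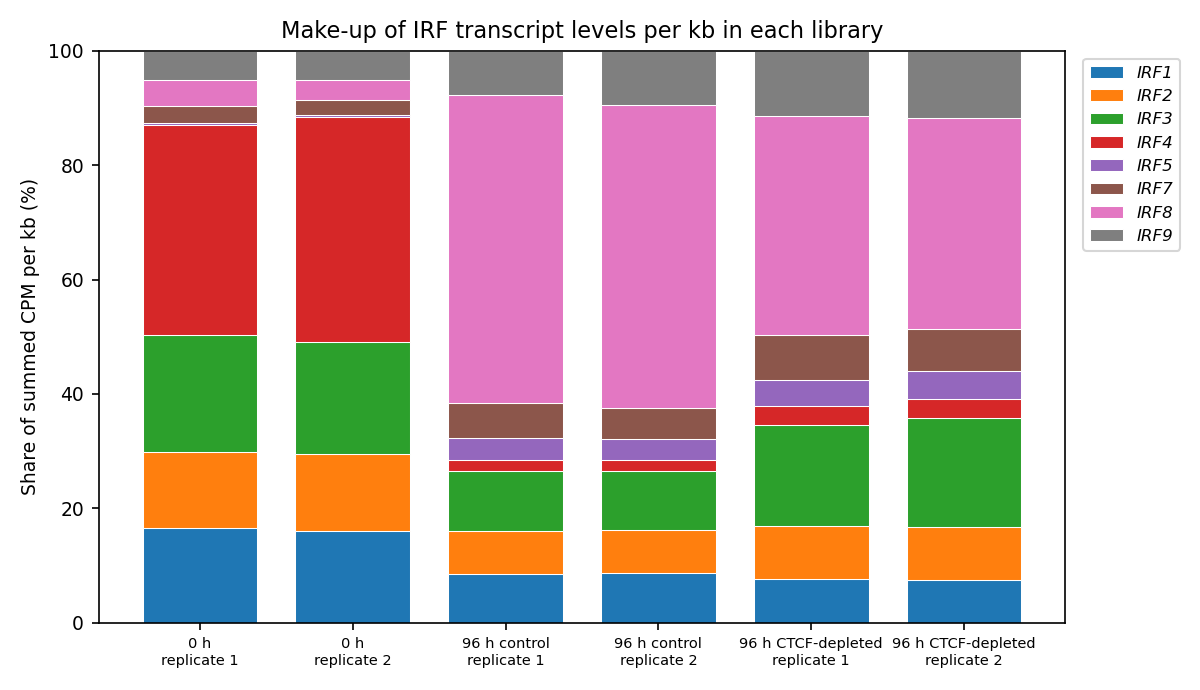
Share of each IRF gene in the summed CPM per kb of MANE exons of the 8 genes in each library, in percent, which other lengths change. *IRF4* holds 36.8% and 39.3% at 0 h, and *IRF8* holds 53.9% and 53.0% in the 96 h control and 38.3% and 37.0% in CTCF-depleted libraries.

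The proteins that bind DNA together with IRF4 and IRF8, and the IRF2-binding proteins, were followed as a list of 11 genes. In control cells against 0 h, 7 were higher (63.6%, beside 25.4% of all tested genes) and 2 lower (18.2%, beside 22.9%), with a median log2 fold change of 1.45, or 1.16 without *BATF2*, which had 0 counts at 0 h and 1 in each control library. *SPI1*, which encodes PU.1, went from 45.5 and 40.4 CPM at 0 h to 321 and 316 CPM in the control and 271 and 263 CPM without CTCF. Its levels at 96 h lay far above 0 h, and the log2 fold change was 2.90 (SE 0.06, edgeR adjusted p = 3.74e-45). *IRF2BPL* rose by 2.68, the ETS factor *ETV6* by 2.29 and *SPIB*, a PU.1 relative, by 1.503, while *TCF3*, which encodes the E2A proteins of early B cells, fell by 1.79 and the corepressor *IRF2BP1* fell by 1.52. With CTCF depletion 1 of the 11 was higher (9.09%, beside 5.41% of all tested genes) and 0 lower (beside 7.03%), with 3 higher and 5 lower by edgeR at unadjusted p < 0.05 and none called in either direction with DESeq2, and the median was -0.04. The gene called was *BATF2*, with 1 count in each control and 10 counts in each CTCF-depleted library, and it was not called with DESeq2, without either control library or without a filter on low counts. *IRF2BPL*, at 79.7 and 80.8 CPM with and 51.5 and 54.8 CPM without CTCF, had a log2 fold change of -0.59 and stayed short of the threshold. *SPI1* had one of -0.25 (SE 0.05).

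Of 20 sensors, adaptors and kinases that activate IRF3, IRF5 and IRF7, 19 were tested. In control cells 7 were higher than at 0 h (36.8%, beside 25.4% of all tested genes) and 2 lower (10.5%, beside 22.9%), and the median log2 fold change was 0.47. *TLR7*, a receptor for single-stranded RNA, had 6 and 8 counts at 0 h, 366 in both control libraries and 204 and 231 without CTCF. Its 3 groups did not overlap, with log2 fold changes of 5.74 in control cells and -0.72 with CTCF depletion (SE 0.11, edgeR adjusted p = 3.56e-07), the latter short of the threshold without CTCF-depleted replicate 1 (-0.60). *TLR8*, its relative, had no count at 0 h and 50 and 66 in the control, at least 19.7-fold higher against a floor of 3 counts in each 0 h library. *STING1*, listed under its older symbol *TMEM173* and encoding the adaptor of the cGAS pathway, rose by a log2 fold change of 3.93, and the IRF kinase gene *IKBKE* rose by 2.26. *SLC15A4*, the lysosomal transporter that recruits TASL for IRF5 activation, fell by 1.41, and *TLR3* fell from 14 and 22 counts to 5 and 2. The *TLR3* call was lost with DESeq2 and without 0 h replicate 2 (-2.19) or control replicate 2 (-1.79). With CTCF depletion 2 of the 19 were lower (10.5%, where 7.03% of all tested genes were) and 0 higher (where 5.41% were), with 8 higher and 3 lower by edgeR at unadjusted p < 0.05 and 0 higher and 1 lower with DESeq2. At adjusted p below 0.05 with no fold change threshold, 2375 of all 14758 genes were already higher and 3330 lower. *TLR9*, the sensor of unmethylated DNA, was the other gene called lower, with 56 and 50 counts in the control and 19 and 34 without CTCF. Its log2 fold change of -0.97 was not called with DESeq2, without either control library (-0.88 and -0.98) or without CTCF-depleted replicate 1 (-0.57).

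Interferon genes themselves were at the limit of detection. Of 22 interferon ligand genes, 18 had no count in any library, the highest count of any was 2, and none was tested. A count of 0 allowed a level of up to 0.225 to 0.309 CPM per library, the value of 3 counts, for counting error only. The receptors and their signalling partners were all tested. Of 11 such genes, 10 were higher in control cells than at 0 h (90.9%, beside 25.4% of all tested genes) and 0 were lower, beside 22.9% (0 also at an unadjusted p below 0.05 and with DESeq2), with a median log2 fold change of 1.64. DESeq2 called 9 higher. The call of *SOCS1* was lost with DESeq2, with a fit of the 4 compared libraries (0.72) and without 0 h replicate 2 (0.43) or either control library (0.70 in both cases). *IFNGR2* rose by 2.91 and *IFNAR2* by 2.68 on the log2 scale, and *USP18*, which restrains the type I receptor, had 2 counts in each 0 h library and 22 and 21 in the control. *JAK2*, a kinase of the interferon gamma receptor, had 21.4 and 21.5 CPM at 0 h, 259 and 285 CPM in the control and 468 and 473 CPM without CTCF. The 3 groups did not overlap, and the difference between CTCF-depleted and control cells was 0.79 on the log2 scale (SE 0.05, edgeR adjusted p = 4.92e-21). *SOCS1*, a feedback inhibitor of JAK kinases, was also called higher without CTCF, with 86 and 88 counts beside 56 and 55 in the control and a log2 fold change of 0.68 (SE 0.21, edgeR adjusted p = 0.00696). That call was lost with DESeq2 and without any single one of the 4 libraries, with values of 0.69 to 0.73. These 2 of 11 (18.2%) stand beside 5.41% of all tested genes. No gene of the list was called lower, where 7.03% of all were, and at unadjusted p < 0.05 edgeR had 4 higher and 1 lower, with 1 higher and 0 lower called by DESeq2.

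Interferon-stimulated genes, many of which carry IRF sites, moved in both directions. Of 38 listed, 33 were tested, with 16 higher (48.5%) and 9 lower (27.3%) in control cells, beside 25.4% and 22.9% of all tested genes, and a median log2 fold change of 0.61. DESeq2 called 14 higher and 7 lower. The lower call of *CMPK2* (-0.68) was lost with DESeq2 and without control replicate 1 (-0.55). That of *GBP3* (-0.76) was lost with DESeq2 and without 0 h replicate 2 (-0.59) or either control library (-0.80 and -0.75). *GBP2* and *EPSTI1* had no count at 0 h and were at least 79.1-fold and 7.31-fold higher in the control against the floor of 3 counts a library. *OAS1*, a sensor of double-stranded RNA, rose from 1.24 and 0.75 CPM to 30.8 and 30.9 CPM, and the restriction factor *SAMHD1* from 2.48 and 3.98 CPM to 65.8 and 70.1 CPM. *GBP1* (-2.85), *OAS3* (-1.71), *MX1* (-1.26) and *IFIT5* (-1.11) were the called genes with the most negative log2 fold changes. With CTCF depletion 4 of the 33 were higher and 2 lower, where 5.41% and 7.03% of all tested genes were, and the median was 0.22. By edgeR 12 were higher and 8 lower at unadjusted p < 0.05, and DESeq2 called 3 higher and 2 lower. Of all 14758 genes, 2375 were higher and 3330 lower already at adjusted p below 0.05 with no fold change threshold. *IFIT5* had 11.6 and 11.2 CPM in the control and 22.9 and 19.9 CPM without CTCF, a log2 fold change of 0.90, and *BST2*, which encodes tetherin, went from 47.0 and 49.9 CPM to 78.6 and 72.3 CPM, a change of 0.64. *GBP3* had a log2 fold change of 0.90 and *MX2* one of 0.63. *GBP3* was not called with DESeq2, without either control library (0.94 and 0.92) or without CTCF-depleted replicate 2 (0.72), and *MX2* was not called without control replicate 2 (0.51). *IFITM2*, an inhibitor of virus entry, had 111 and 125 CPM in the control and 72.9 and 68.7 CPM without CTCF, with a log2 fold change of -0.74. *CMPK2*, a mitochondrial nucleotide kinase, had 59 and 72 counts beside 26 and 20, with one of -1.47 (SE 0.26, edgeR adjusted p = 5.37e-06).

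**Figure D4:**
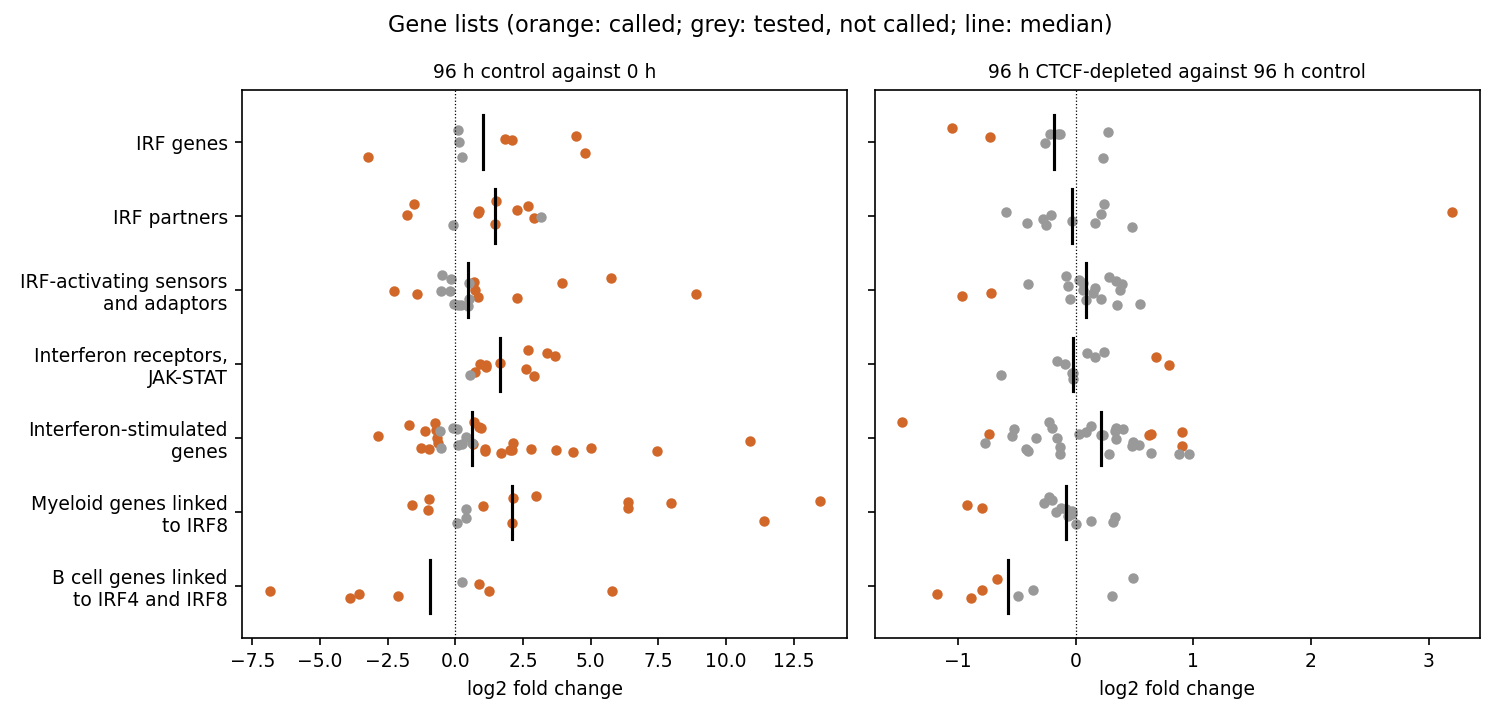
Log2 fold changes of the tested genes of the lists named on the axis, in control cells at 96 h against 0 h (left) and in CTCF-depleted against control cells at 96 h (right), with called genes in orange, other genes in grey, list medians as vertical lines and genes without counts at 0 h at their fitted value. On the right, the median is -0.58 for the B cell genes and 0.22 for the interferon-stimulated genes.

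Genes linked to IRF8 in myeloid cells formed a list of 18, of which 15 were tested. In control cells 9 were higher than at 0 h (60%, beside 25.4% of all tested genes) and 3 lower (20%, beside 22.9%), with a median log2 fold change of 2.07. *CYBB*, the catalytic subunit of the phagocyte NADPH oxidase, had 2 and 8 counts at 0 h, 13334 and 12933 in the control and 7000 and 6511 without CTCF. The control libraries were the highest, at 1177 and 1198 CPM, and the CTCF-depleted libraries had 648 and 600 CPM. *LYZ* had 3 and 6 counts at 0 h and 4658 and 4396 CPM in the control. The apoptosis inhibitor genes *BCL2* and *BCL2L1* fell by 1.60 and 1.02, and the phosphatase gene *PTPN13* fell by 0.99. With CTCF depletion 2 of the 15 were lower (13.3%, where 7.03% of all tested genes were) and 0 higher (where 5.41% were), with 2 higher and 7 lower by edgeR at unadjusted p < 0.05 and 0 higher and 2 lower with DESeq2, and the median was -0.08. The 2 were *CYBB* with a log2 fold change of -0.93 (SE 0.05, edgeR adjusted p = 2.53e-24) and *SLC11A1*, a phagosomal metal transporter gene, with -0.80 (SE 0.15, edgeR adjusted p = 1.16e-05). The myeloid regulator *KLF4* had 83.5 and 76.1 CPM in the control and 89.7 and 84.7 CPM without CTCF.

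Of 10 genes linked to IRF4 and IRF8 in B cells, 8 were tested. In control cells 3 were higher than at 0 h (37.5%, beside 25.4% of all tested genes) and 4 lower (50%, beside 22.9%), and the median log2 fold change was -0.93. The surrogate light chain genes *IGLL1* and *VPREB1* fell by 6.85 and 3.56, the B cell coactivator *POU2AF1* fell by 3.89 and *MYC* fell by 2.12. *PRDM1*, which encodes BLIMP1, rose from 13 and 18 counts to 871 and 804, *XBP1* had a log2 fold change of 1.23 and the chemokine receptor gene *CXCR4* one of 0.87. With CTCF depletion 4 of the 8 were lower (50%, where 7.03% of all tested genes were) and 0 higher (where 5.41% were), with 2 higher and 6 lower by edgeR at unadjusted p < 0.05 and 0 higher and 4 lower with DESeq2, and the median was -0.58. This list, like the others, was chosen with earlier results of these data known, so that its share is a description. *CXCR4* had 132 and 129 CPM at 0 h, 239 and 236 CPM in the control and 133 and 141 CPM without CTCF. Its level without CTCF was thus close to that at 0 h, with a log2 fold change against the control of -0.79 (SE 0.05, edgeR adjusted p = 3.08e-19). The other 3 had few counts at 96 h. *VPREB1*, also among the B cell markers above, had 147 and 121 counts in the control and 73 and 68 without CTCF. *POU2AF1* (-0.67) was not called without control replicate 1 (-0.50) or CTCF-depleted replicate 2 (-0.59), and *IGLL1* (-1.18) was not called without control replicate 2 (-1.001) or CTCF-depleted replicate 1 (-0.91).

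With CTCF depletion, where 5.41% of all tested genes were higher and 7.03% lower, of the 10 macrophage markers 1 was higher (*ITGAM*, 120 and 136 CPM in the control and 289 and 280 CPM without CTCF) and 1 lower (*MRC1*, 35.5 and 34.8 CPM beside 14.0 CPM in both CTCF-depleted libraries). Of the 9 B cell markers, *CD22* was higher, with 32.5 and 37.1 CPM beside 97.9 and 95.3 CPM, and *VPREB1* lower. At unadjusted p < 0.05, 6 macrophage markers were higher and 4 lower and 1 B cell marker was higher and 4 lower in edgeR. The part of such changes in the *IRF8* and *IRF1* values was not tested.

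The genes whose profile over the 6 libraries was nearest to that of *IRF8* were *PROC*, *IRAK2*, *EMP2*, *PCDH15* and *CTSB*, with a root mean square difference of 0.15, 0.19, 0.20, 0.20 and 0.21 in centred log2 CPM. *CTSB*, the gene of a lysosomal protease, had 66.0 and 57.1 CPM at 0 h, 1234 and 1260 CPM in the control and 797 and 782 CPM without CTCF. *IRAK2*, a kinase gene of the Toll-like receptor pathway, had 1.13 CPM in both 0 h libraries, 28.1 and 29.8 CPM in the control and 14.6 and 13.8 CPM without CTCF. All 5 genes were picked for likeness to *IRF8* over these 6 libraries, so that intermediate levels without CTCF and lower calls follow from the choice. *EMP2* had 52.2 and 50.7 CPM in the control and 34.6 and 27.3 CPM without CTCF, and its lower call was lost without CTCF-depleted replicate 2 (-0.54). *PROC* and *PCDH15* had at most 1 count in each 0 h library. *PROC* had 93 and 70 counts in the control and *PCDH15* 67 and 44. Their log2 CPM at 0 h, and so their place among the nearest genes, rests on the prior count. The lower calls of both with CTCF depletion were lost with DESeq2 and without control replicate 1 (-0.78 and -0.81) or CTCF-depleted replicate 2 (-0.85 and -1.02), and that of *PCDH15* also without CTCF-depleted replicate 1 (-1.20). Of the family, *IRF5* came nearest to *IRF8*, with a root mean square difference of 0.35, followed by *IRF7* with 1.12 and *IRF9* with 1.24. *IRF4* was the farthest, with 3.50.

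Around *IRF8*, 6 genes with a known position begin within 250 kb of its start, and all 6 were tested. Positions were known for the 78.8% of symbols matched to GENCODE, which also limits the neighbours of the other members. *COX4I1*, a subunit gene of cytochrome c oxidase, begins 99.5 kb upstream and had 194 and 181 CPM in the control and 186 and 190 CPM without CTCF. Its neighbour *EMC8*, at 99.6 kb, had 25.0 and 27.4 CPM beside 29.8 and 26.3 CPM, and *C16orf74*, at 148.1 kb, had 19.9 and 19.8 CPM beside 19.4 and 22.8 CPM. For these 3 the control and CTCF-depleted libraries overlapped. *GINS2*, a DNA replication gene that begins 210.2 kb upstream, was called lower in control cells at 96 h and was the 1 of 6 neighbours called with CTCF depletion (beside 7.03% lower over all tested genes), at a log2 fold change of -0.72 (SE 0.15, edgeR adjusted p = 0.000122). It was not called without control replicate 1 (-0.46) or CTCF-depleted replicate 1 (-0.49). The microRNA genes *MIR1910* and *MIR6774* had at most 18 counts in any library, and both were called higher in control cells than at 0 h. The call of *MIR6774* was lost with DESeq2 and without 0 h replicate 1 (3.60). That of *MIR1910* was lost with DESeq2, with no filter on low counts, with a replicate block and without each library of the comparison (1.33 to 1.62). *MIR6774* lies inside *IRF8* on the same strand and had 12 and 11 counts in the control and 9 and 0 without CTCF. Without CTCF-depleted replicate 1, its call with CTCF depletion rested on 1 library with 0 counts (fitted at -6.53), and no fold is read from it.

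**Figure D5:**
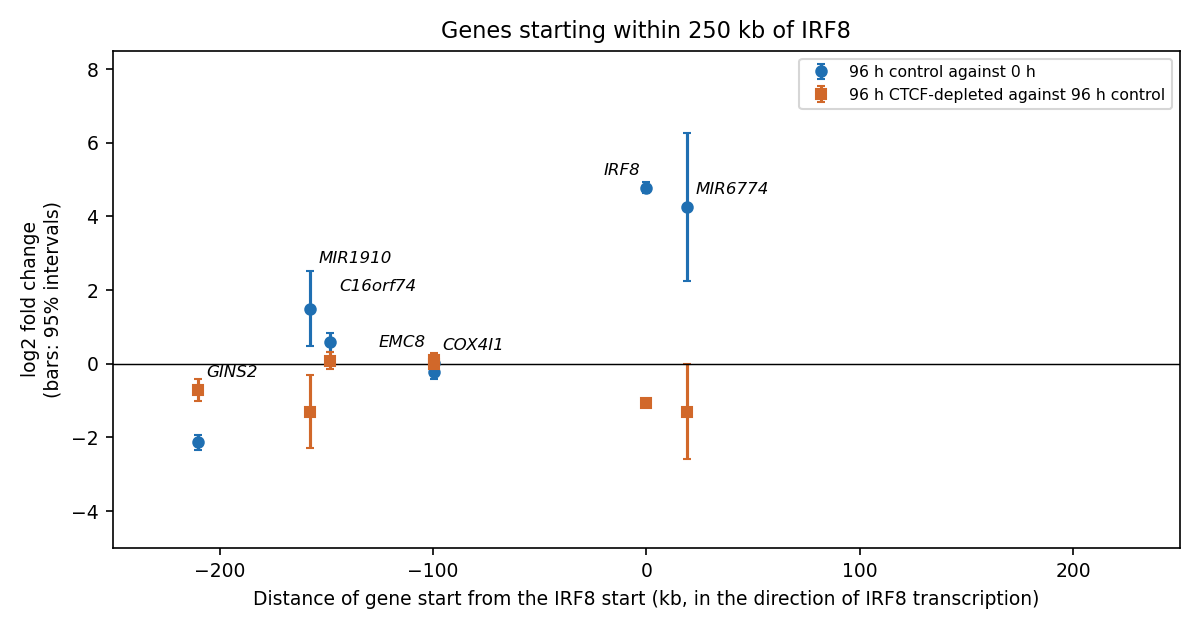
Log2 fold changes of *IRF8* and the 6 tested genes with a known position that begin within 250 kb, against the distance of their start from the *IRF8* start in kb along the direction of transcription, with bars for 95% intervals. *IRF8* is at 4.78 in control cells against 0 h and at -1.06 with CTCF depletion, and *EMC8* is at -0.22 and 0.10.

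With CTCF depletion, 5 of the 103 tested neighbours of the other members were called higher (4.85%, beside 5.41% of all tested genes) and 3 lower (2.91%, beside 7.03%). None of these lay near *IRF2*, *IRF4* or *IRF5*, which had 3, 1 and 8 tested neighbours. Near *IRF1*, 2 of 5 tested genes were higher, the carnitine transporter gene *SLC22A5* with 2.29 and 2.04 CPM in the control and 5.56 and 5.62 CPM without CTCF, and *IRF1-AS1*, listed as *C5orf56*, with 2.38 and 3.15 CPM beside 8.52 and 5.71 CPM. Their log2 fold changes were both 1.36, and both had fallen between 0 h and the control. *IRF1-AS1* is antisense to *IRF1* and overlaps it, and although the library kit was stranded, the strand setting of the counting is not given, so that reads of the 2 genes cannot be told apart with certainty. *BCL2L12* overlaps the start of *IRF3* on the other strand, and had 11.0 and 12.0 CPM in the control and 10.6 and 10.3 CPM without CTCF. Near *IRF3*, 1 of 28 tested genes was higher (*IL4I1*, 1.09), near *IRF7* 2 of 27 were lower (*MIR210HG*, -3.31, and *SLC25A22*, -0.67), and near *IRF9* 2 of 31 were higher (*RABGGTA*, 0.89, and *DHRS1*, 0.64) and 1 lower (*DHRS4-AS1*, -1.51). The calls of *IL4I1*, *SLC25A22* and *DHRS1* were lost with DESeq2 and without single libraries, with *IL4I1* at 0.98 without control replicate 2 and *SLC25A22* at -0.34 without control replicate 1 and -0.60 without CTCF-depleted replicate 2. *DHRS1* had 0.57 and 0.78 without either control library and 0.56 without CTCF-depleted replicate 1. Between 0 h and the control, 20 of the 103 were higher (19.4%, beside 25.4% of all tested genes) and 21 lower (20.4%, beside 22.9%). By member, 1 neighbour was higher and 3 lower for *IRF1*, 3 and 7 for *IRF3*, 9 and 5 for *IRF7* and 7 and 5 for *IRF9*, and 1 was lower for *IRF5*. *SNORD79* lies within *IRF2*. Genes without a matched symbol in the counts also overlap members. *IRF9* is overlapped by a protein-coding gene on its own strand and a long noncoding RNA gene on the other. For *IRF2* it is a long noncoding RNA gene on its own strand. *IRF1* is overlapped by a protein-coding gene and a Y RNA gene on the other strand. Any effect of these overlaps on the counts was not tested.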

How the data were processed

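The authors deposited raw counts per gene symbol. According to the submitters' processing notes, reads were aligned to hg38 with STAR 2.6.1d and counted with featureCounts 2.0.6. The annotation release and strand setting are not given. The study calls its RNA-seq replicates biological. Replicates differed by more than sampling noise (chi-square per degree of freedom 2.69, 1.90 and 1.71).

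The fit used edgeR 4.0.16 under R 4.3.3, with filterByExpr, TMM scaling and a quasi-likelihood model of the 3 conditions over 6 libraries. Adjustment followed Benjamini-Hochberg over 14758 genes. SEs were derived from the F statistic and the log2 fold change, and log2 CPM had 2 as prior count. Positions and lengths were those of GENCODE release 44, matched by current or older symbol (23653 symbols, 78.8%). The plan named annotated exons as the length, without a choice of transcript. MANE Select exons were then used because the union of all annotated exons was much longer (12.265 against 3.554 kb for *IRF1*). The union was an alternative added after seeing the data. Other alternatives were DESeq2 1.42.0, RLE size factors, a minimum of 10 counts per library, no count filter, a fit of the 4 compared libraries alone, other thresholds, a replicate block and leaving out each library. Python 3.11.15 (pandas 2.3.3, numpy 2.4.6, scipy 1.17.1) made the summaries and matplotlib 3.10.9 the plots.

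The members and lists were chosen with earlier results of these data known. The rule named the IRF genes, *CTCF*, up to 4 called genes of each other list and direction whose libraries do not overlap, the 5 genes with profiles nearest to *IRF8*, the genes within 250 kb of *IRF8*, called neighbours of the other members and genes that a member overlaps. Called neighbours of the other members are named for CTCF depletion and counted for control against 0 h. Markers at 0, the genes named as most abundant and *IRF2BPL* with CTCF depletion were singled out after their values were seen.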

Additional observations from a re-analysis of the deposited data

How the results depend on the processing

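Libraries were not paired, because the study's methods name no pairing and the labels do not say that equal numbers share a culture. As a check, differences between replicates 1 and 2 correlated across genes at -0.0194, 0.0109 and -0.0294. With a replicate block, 3730 genes were higher and 3360 lower in control cells against 0 h. The block gave 785 and 1033 with CTCF depletion, and 4007 and 3715 without CTCF against 0 h. Of 153 pairs of a named gene and a comparison, 32 changed their call or sign under an alternative that kept the thresholds, 16 of them with DESeq2. Over 12 settings the log2 fold change of *IRF8* with CTCF depletion ranged from -1.06 to -0.995. At an adjusted p below 0.05 with no fold change threshold, 5500 genes were lower in control cells, 2375 higher and 3330 lower with CTCF depletion, and 5658 lower without CTCF against 0 h, and 2 members were higher and 3 lower with CTCF depletion. At an absolute log2 fold change above 1, 2075 genes were lower in control cells, 409 higher and 436 lower with CTCF depletion, and 1 member was lower with CTCF depletion and 1 without CTCF against 0 h. The last count was also 1 with RLE size factors and with at least 10 counts in every library, and 1 to 2 on leaving out single libraries. *IRF8* ranked 5 at 0 h by coding length. Signs turned on leaving out single libraries for *IRF3* in control cells (-0.0235 to 0.169), for *IRF9* (-0.223 to 0.0336), *C16orf74* (-0.00573 to 0.237) and *COX4I1* (-0.0124 to 0.0875) with CTCF depletion, and for *IRF2* without CTCF against 0 h (-0.0858 to 0.0402, with 0.00311 without CTCF-depleted replicate 1). A group left with 1 library is assumed to vary like the other groups. In the same way *IRF8* minus paralog differences in control cells ranged from 4.48 to 4.81 for *IRF1*, 4.34 to 4.74 for *IRF2*, 4.51 to 4.84 for *IRF3*, 7.76 to 8.23 for *IRF4*, 0.21 to 0.45 for *IRF5* and 2.77 to 3.14 for *IRF9*. Without CTCF against 0 h they ranged from 4.15 to 4.49, 3.54 to 3.94, 3.18 to 3.51, 6.47 to 6.95, -0.62 to -0.39 and 1.84 to 2.21, and with CTCF depletion from -1.09 to -0.77 for *IRF9*. The cause was not tested.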
